A study of Homo sapiens with 4 samples.

Results

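The genes described here are 7 class B peptide hormone receptors and the 3 receptor activity-modifying proteins (RAMPs), measured in untreated HEK293 cells. The receptors are CALCR, CALCRL, PTH1R, VIPR1, VIPR2, GLP1R and ADCYAP1R1, and the accessory proteins are RAMP1, RAMP2 and RAMP3. They were found on the array through the RefSeq accession in each probe name. All 10 genes were matched, each by 1 target of 3 probes, so that 30 of 71998 probes and 10 of 17214 named genes belong to them. HEK293 is a line of human embryonic kidney cells transformed with adenovirus DNA and is much used to express cloned receptors. The 4 arrays belong to 1 group. Each carried RNA from its own 10 cm plate of cells grown in DMEM with serum, and none was treated. It is 1 line, so the arrays show the spread between plates of that line and not between lines.

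Class B receptors bind peptide hormones with a large extracellular domain and mostly raise cyclic AMP through the stimulatory G protein. CALCR, the calcitonin receptor, and CALCRL, the calcitonin receptor-like receptor, change their ligand preference with the RAMP they are bound to. CALCRL with RAMP1 is a receptor for calcitonin gene-related peptide (CGRP), CALCRL with RAMP2 or RAMP3 is a receptor for adrenomedullin, and CALCR with a RAMP is a receptor for amylin. CALCRL needs a RAMP to reach the cell surface as a working receptor, which is why cells used to express it are often asked for their own RAMPs. PTH1R answers parathyroid hormone and its related protein, VIPR1 and VIPR2 answer vasoactive intestinal peptide and PACAP, ADCYAP1R1 prefers PACAP, and GLP1R is the receptor of the incretin glucagon-like peptide 1.

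The question put to the arrays was whether HEK293 cells contain message for these receptors and accessory proteins. A gene's level is given in log2 units, after its probes were averaged on the linear scale. It was set against the study's threshold for expression, the mean plus 2 SD of seminal protein genes on the same array, which is called the baseline here. The study lists 11 such genes, of which 10 were matched, all but PYY2. The distance to the baseline is the level minus the baseline, in log2 units, and detected means a positive distance as the mean of the 4 arrays. Replicates 1 to 4 had baselines of 9.47, 9.94, 10.69 and 10.32.

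None of the 10 genes was detected (0 of 10), beside 52.7% of all named genes. Their mean distances ran from -3.77 for RAMP3 to -0.82 for VIPR1, with a median of -2.46, where the median of all named genes was 0.26. Of the 40 values of the 10 genes on the 4 arrays, 39 lay below the baseline, and the exception was VIPR1 on replicate 2. A two-sided limma test of the distances against 0, adjusted by Benjamini-Hochberg over all named genes, placed 10 of 10 below the baseline and 0 of 10 above it, where 41.1% of all named genes were called below and 45.8% above. Below the baseline on each of the 4 arrays were 9 of the 10 genes, beside 39.8% of all named genes. The calls rest on 1 standard error of 0.35 log2 units that limma gave all genes alike, and on control genes whose own spread within an array did not enter the test. The smallest p that 4 arrays allow in an exact two-sided sign-flip test is 0.125, which 9 of the 10 genes had, and VIPR1 had an exact p of 0.25.

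**Figure D1:**
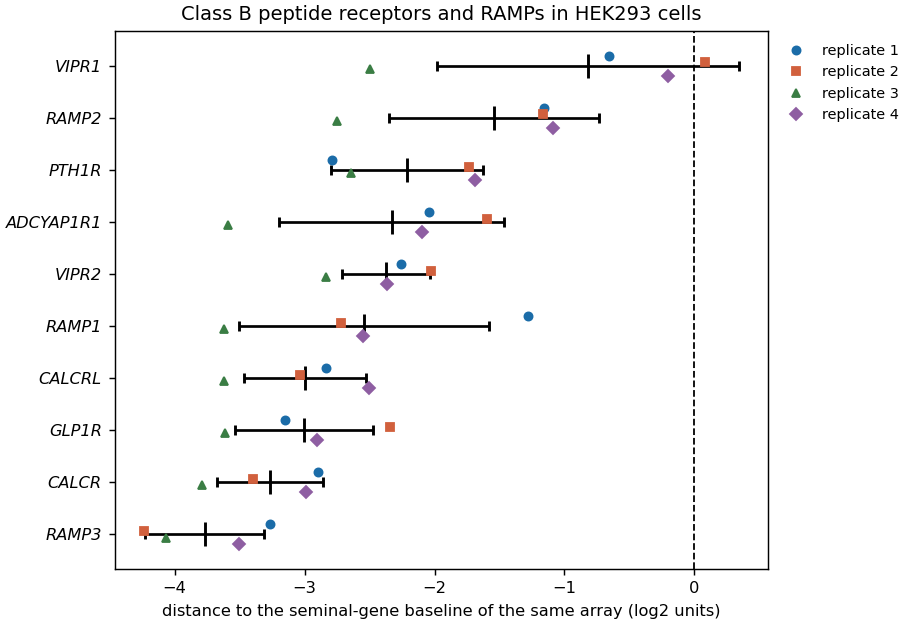
Distance of each of the 10 genes to the baseline of the same array, in log2 units on the horizontal axis, with a symbol for each of the 4 replicates, a vertical tick for the mean and a bar for the SD (n = 4 arrays). The dashed line is the baseline, and 39 of the 40 symbols lie to its left, the exception being VIPR1 on replicate 2.

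The RAMPs, which set the ligand of the calcitonin family receptors, differed in signal. RAMP2, the partner that makes CALCRL an adrenomedullin receptor, had levels of 8.31, 8.77, 7.94 and 9.23 log2 units on replicates 1 to 4. These gave distances of -1.16, -1.17, -2.75 and -1.09, so that replicate 3 lay apart from the other arrays, and the mean was -1.54 ± 0.81 (SD, n = 4; limma adjusted p = 1.6e-05). RAMP1, the CGRP receptor partner, had levels of 8.19, 7.21, 7.07 and 7.77, highest on replicate 1, and a mean distance of -2.54 ± 0.97 (SD, n = 4). RAMP3, an alternative adrenomedullin and amylin receptor partner, had levels of 6.20, 5.70, 6.62 and 6.82. It was the lowest of the 10 genes on 4 of 4 arrays, with a mean distance of -3.77 ± 0.46 (SD, n = 4), and lay at percentile 0.22 to 5.55 of all named genes.

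Of the calcitonin family receptors that the RAMPs join, CALCRL had levels of 6.64, 6.90, 7.07 and 7.82, and CALCR had levels of 6.58, 6.54, 6.90 and 7.34. Their mean distances were -3.00 ± 0.47 for CALCRL and -3.27 ± 0.41 for CALCR (SD, n = 4 for each). Both genes were highest on replicate 4, where their distances were still -2.50 and -2.99. CALCRL lay at percentile 8.66 to 23.5 and CALCR at percentile 5.52 to 15.8 of all named genes.

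Of the receptors for vasoactive intestinal peptide and PACAP, VIPR1 had the largest SD of the 10 genes and VIPR2 the smallest. VIPR1 had levels of 8.81, 10.02, 8.19 and 10.12, the highest of the 10 genes on 4 of 4 arrays. Its distances were -0.66, 0.08, -2.50 and -0.20 in the same order, a mean of -0.82 ± 1.16 (SD, n = 4; limma adjusted p = 0.023). That distance was smaller than its own SD, and without replicate 3 it was -0.26, which the limma test did not call (adjusted p = 0.515). On replicates 1 and 2 alone, which share 1 distribution of values, it was -0.29 (limma adjusted p = 0.557), and on replicates 3 and 4 alone -1.35 (limma adjusted p = 0.030). ADCYAP1R1 had levels of 7.43, 8.34, 7.10 and 8.23 and a mean distance of -2.33 ± 0.87 (SD, n = 4), with replicate 3 the lowest at -3.59. VIPR2 had levels of 7.21, 7.91, 7.86 and 7.95, replicate 1 below the others, and a mean distance of -2.37 ± 0.34 (SD, n = 4).

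The remaining receptors serve calcium and glucose control. PTH1R had levels of 6.68, 8.20, 8.04 and 8.63, lowest on replicate 1, and a mean distance of -2.21 ± 0.58 (SD, n = 4). GLP1R had levels of 6.32, 7.59, 7.08 and 7.42, also lowest on replicate 1, and a mean distance of -3.00 ± 0.53 (SD, n = 4). Neither overlapped the baseline on any array, the nearest values being -1.69 for PTH1R on replicate 4 and -2.34 for GLP1R on replicate 2.

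In order of mean distance the genes ran VIPR1, RAMP2, PTH1R, ADCYAP1R1, VIPR2, RAMP1, CALCRL, GLP1R, CALCR and RAMP3. In 8 of the 9 pairs of neighbours the gap was smaller than the larger of their SDs, and the exception was CALCR over RAMP3, a gap of 0.50 against an SD of 0.46. The order is one of signal, because each probe has an affinity of its own, and it does not rank the amounts of the transcripts. For 8 of the 10 genes the distance was lowest on replicate 3, the array with the highest baseline, whereas the level itself was lowest there for 4 of the 10. A higher baseline lowers the distance of every gene on its array, and the share of all named genes lowest there was not counted. The SD of a member's level ran from 0.35 to 0.94 log2 units, where the median gene of the whole table had 0.42.

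The 3 probes of a gene show how much of a level rests on a single probe. Of the 120 probe values of the 10 genes, 2 exceeded the baseline of their array, and both belonged to the same probe of VIPR1. That probe read 8.89, 11.28, 6.14 and 11.27 on replicates 1 to 4, more than 2 log2 units higher on replicates 2 and 4 than on the others. Another VIPR1 probe read 9.41, 9.08, 9.31 and 9.15, and the remaining one 7.58, 6.35, 7.41 and 8.24, so neither showed that pattern. With the variable probe left out, a choice made after the values were seen, VIPR1 stood at -1.49 (limma adjusted p = 3.3e-05). The probe left out had the gene's highest mean and both values above the baseline, so the lower distance was no independent test. For ADCYAP1R1 the middle probe read 8.33, 9.62, 7.81 and 9.11, and it was the highest of the gene's 3 on each array. For RAMP2 all 3 probes had mean values between 8.02 and 8.85, and for RAMP3 between 6.01 and 6.72. The gene levels of VIPR1, PTH1R, VIPR2, GLP1R, ADCYAP1R1 and RAMP2 were each higher on replicates 2 and 4 than on 1 and 3. Those of CALCR, CALCRL, RAMP1 and RAMP3 were not. The split was narrowest for VIPR2, at 7.91 on replicate 2 against 7.86 on replicate 3 (SD 0.35, n = 4). For PTH1R it was 8.20 against 8.04 on the same arrays (SD 0.85, n = 4). How many of all named genes had the same order was not counted, so it is not read as a trait of these genes. Levels that alternate between arrays were also seen outside these genes, since the neurofilament gene NEFM read 13.57, 8.32, 13.09 and 8.08, with the opposite arrays high.

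**Figure D2:**
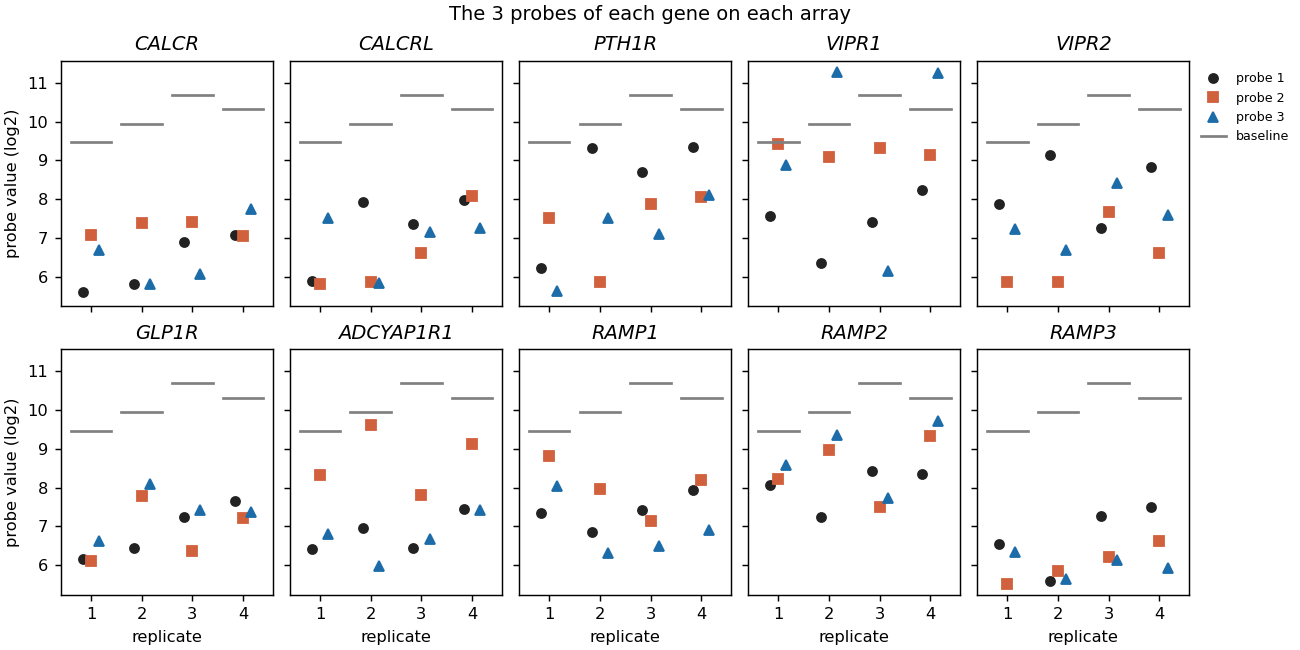
Values of the 3 probes of each gene (log2, vertical axis) on the 4 replicates (horizontal axis, with no order among replicates), 1 panel for each gene, with grey bars for the baseline of each array. The third VIPR1 probe is above the bar on replicates 2 and 4, at 11.28 and 11.27, and no other probe value of the 10 genes is above its bar.

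How firmly the absence of a call can be read depended on the control genes. Of the 10 control genes matched, AFG2A (listed by the study as SPATA5) and SPATA13 were well above the other 8, which ran from 6.05 to 7.72 log2 units. Set beside those 8, a split made with the values in view, VIPR1 and RAMP2 exceeded the highest of them on 4 of 4 arrays. PTH1R, VIPR2 and ADCYAP1R1 did so on 3 of 4, RAMP1 on 2, CALCRL and GLP1R on 1 each, and CALCR and RAMP3 on none (0 of 4). The highest of the 8 lay at percentile 20.8 to 24.6 of all named genes on the single arrays. Most named genes exceeded it as well. With a baseline from the 8 genes alone, at 7.78, the mean distance was 1.51 for VIPR1 (limma adjusted p = 1.8e-05), 0.78 for RAMP2 (limma adjusted p = 0.0096) and 0.11 for PTH1R (limma adjusted p = 0.710). The limma test then placed 4 of the 10 genes below the baseline, CALCR, CALCRL, GLP1R and RAMP3, beside 18.1% of all named genes. Detected by mean distance were 3 of the 10, beside 74.0% of all named genes.

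Olfactory receptor genes, which cells outside the nose rarely transcribe, give a background that does not use the seminal genes. Of 364 such genes, 347 to 363 lay below VIPR1 on the single arrays and 330 to 360 below RAMP2. RAMP3 exceeded 9 to 141 of them and CALCR 112 to 297. With a baseline made from the olfactory genes, 8.02 log2 units, VIPR1 stood at 1.26 (limma adjusted p = 0.00061) and RAMP2 at 0.54 (limma adjusted p = 0.069), and the other 8 genes stayed below 0. That baseline had 71.4% of all named genes detected. CALCR, CALCRL, GLP1R and RAMP3 were below 0 with each of the 6 baselines, and the limma test placed them below with each.

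**Figure D3:**
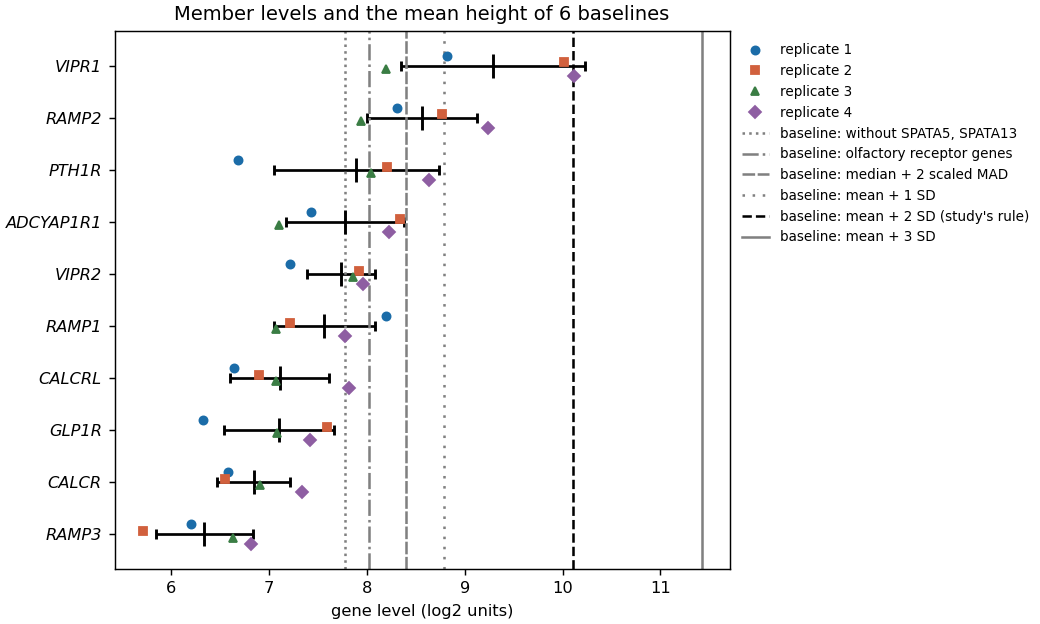
Levels of the 10 genes in log2 units (symbols for the 4 replicates, tick and bar for mean and SD, n = 4 arrays) with vertical lines at the mean height of 6 baselines. The study's baseline lies at 10.10, above the 10 mean levels, whereas the lowest line, at 7.78, has VIPR1, RAMP2 and PTH1R to its right.

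The other 8 class B peptide receptors, for secretin, glucagon, GIP, GLP-2, GHRH, CRH and the second PTH receptor, gave 0 of 8 detected. Their median distance was -3.03, and 52.7% of all named genes were detected. The GIP receptor GIPR came nearest, with levels of 8.72, 10.20, 9.76 and 9.97 and a distance of -0.44 ± 0.53 (SD, n = 4), which the limma test did not separate from the baseline (adjusted p = 0.226). It was above the baseline on replicate 2 alone, by 0.26. The other 7 were called below it, as the 7 member receptors were, beside 41.1% of all named genes. No receptor of the 15 was thus called above the study's baseline. VIPR1 and GIPR were called above with the median plus 2 scaled MAD, with the olfactory genes, and without SPATA5 and SPATA13. Those baselines called 10646 to 11692 of 17214 named genes above. With the mean plus 1 SD, GIPR was called above and VIPR1 was not, beside 10093 of 17214 named genes. CASR, GPER1 and the adrenomedullin-binding ACKR3, of class A or class C, can also pair with RAMPs. With the study's baseline these 3 were called below, at -3.27, -1.68 and -2.11. ACKR3 varied most of them, at -1.06, -0.89, -4.12 and -2.39 on replicates 1 to 4. Its first probe alone exceeded the baseline, on replicates 1 and 2, at 9.48 and 10.23. Without SPATA5 and SPATA13, 2 of the 3 were detected and 1 was called above, where 74.0% of all named genes were detected. With the olfactory genes or the median and MAD, 1 of 3 was detected and 0 called above (71.4% and 67.7% of all named genes detected).

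The peptide ligands were mostly dim, with exceptions whose receptors belong to the 10 genes. Of 18 ligand genes on the list 17 were matched, with a median distance of -3.09. Detected were 3 of 17, beside 52.7% of all named genes. The limma test called 2 of 17 above the baseline and 14 of 17 below, beside 45.8% and 41.1% of all named genes. ADM, which encodes the adrenomedullin that CALCRL binds with RAMP2 or RAMP3, had levels of 12.89, 12.03, 12.61 and 12.03. Its distance was 2.29 ± 0.77 (SD, n = 4; limma adjusted p = 1.5e-10), above the baseline on 4 of 4 arrays and above the 364 olfactory genes on each. PTHLH, which encodes the parathyroid hormone-related protein that activates PTH1R, had levels of 11.51, 10.60, 11.13 and 11.17 and a distance of 1.00 ± 0.71 (SD, n = 4; limma adjusted p = 0.0057). Its 3 targets stood at 1.32, 1.74 and -0.08, and with the median of the probes the gene stood at 0.11 (limma adjusted p = 0.737). It was also not called with the mean of the log2 probe values, at 0.19 (limma adjusted p = 0.612), or without replicate 1, at 0.65 (limma adjusted p = 0.065).

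CALCB, the gene of the second CGRP, was on the baseline. Its levels were 9.92, 10.82, 9.37 and 10.40, and its distance was 0.02 ± 0.95 (SD, n = 4; limma adjusted p = 0.955), which turned negative without replicate 1 and without replicate 2. CALCA, the gene of calcitonin and the first CGRP, stood at -3.53 ± 0.40, IAPP, the amylin gene, at -3.09 ± 0.66, and PTH, the parathyroid hormone gene, at -3.28 ± 0.35 (SD, n = 4 for each). VIP stood at -3.32 ± 0.44, ADCYAP1, which encodes PACAP, at -3.29 ± 0.72, and GCG, from which glucagon-like peptide 1 is cut, at -3.55 ± 0.57 (SD, n = 4 for each). None of these genes reached the baseline on any array.

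**Figure D4:**
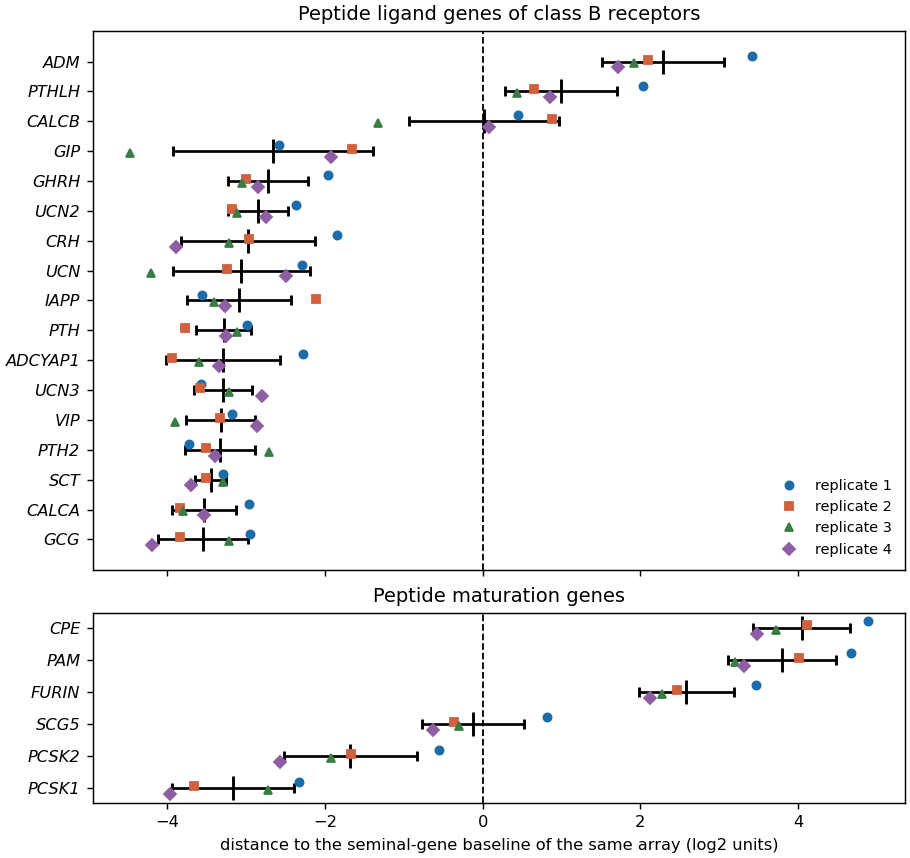
Distance to the baseline in log2 units (horizontal axis) of 17 ligand genes and 6 peptide maturation genes, with symbols for the 4 replicates and the mean and SD (n = 4 arrays) as tick and bar. ADM, PTHLH, CPE, PAM and FURIN lie right of the dashed baseline on 4 of 4 arrays, and 14 ligand genes lie left of it on 4 of 4.

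Peptide hormones of this kind are cut from precursors and often amidated, and 3 of 6 genes of that machinery were detected, a share near the 52.7% of all named genes, with a median distance of 1.23. They were CPE, the carboxypeptidase that trims cut peptides, at 4.05 ± 0.62, PAM, the amidating enzyme that adrenomedullin and CGRP need, at 3.80 ± 0.69, and the protease FURIN at 2.58 ± 0.60 (SD, n = 4 for each). The prohormone convertases PCSK1 and PCSK2 of endocrine cells were called below, at -3.17 and -1.68, and SCG5, the chaperone of PCSK2, had a distance of -0.12 ± 0.64 (SD, n = 4) that limma did not separate from 0 (adjusted p = 0.751). SCG5 rests on 1 of its 3 probes, whose mean was 11.3 against 8.38 and 7.01, and with the median of the probes it was called below, at -1.59 (limma adjusted p = 0.00090). Of 3 peptidases that clear such peptides 1 was detected, beside 52.7% of all named genes. IDE stood at 3.12 ± 0.41, DPP4, which cuts glucagon-like peptide 1, at -0.42 ± 0.71 (limma adjusted p = 0.246), and MME at -2.82 ± 1.12 (SD, n = 4 for each). DPP4 also rests on 1 of its 3 probes, whose mean was 11.1 against 7.35 and 7.09, and with the median of the probes it was called below, at -2.37 (limma adjusted p = 6.0e-06).

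Proteins that work next to the receptors were mostly above the baseline, with a median distance of 1.84. They were 8 of 9 by mean distance and 7 of 9 by the limma test, beside 52.7% and 45.8% of all named genes. CRCP, the receptor component protein that couples the CGRP receptor to its G protein, stood at 1.81 ± 0.28, and the PDZ proteins NHERF1 and NHERF2, which bind the tail of PTH1R, at 4.06 ± 0.36 and 2.28 ± 0.57 (SD, n = 4 for each). The receptor kinases GRK3, GRK5 and GRK6 stood at 1.59, 1.84 and 1.85, the arrestin genes ARRB2 at 4.79 and ARRB1 at 0.68 (limma adjusted p = 0.060), and GRK2 was called below at -3.50. Of 18 genes from the stimulatory G protein to CREB, 14 were detected and called above, beside 52.7% and 45.8% of all named genes, with a median distance of 1.49. With a baseline of the mean plus 3 SD, 5 of the 18 were called above, GNAS, GNB1, ADCY6, PRKACA and PRKAR1A, and 3 of the 9 proteins next to the receptors, NHERF1, NHERF2 and ARRB2. At that height 5034 of 17214 named genes were called above. GNAS, the stimulatory alpha subunit, stood at 5.03 and GNB1, a beta subunit, at 4.14. Of the adenylyl cyclases ADCY6 stood at 2.29, ADCY9 at 2.04, ADCY7 at 1.66, ADCY1 at 1.14 and ADCY3 at 0.94. The other cyclases on the list, ADCY4, ADCY5, ADCY2 and ADCY8, were called below, at -1.78, -2.74, -3.38 and -3.47. The protein kinase A genes were PRKAR1A at 4.20, PRKACA at 3.29, PRKACB at 1.91, PRKAR1B at 1.33, PRKAR2A at 1.09 and PRKAR2B at 0.73, and CREB1, the factor the kinase acts on, stood at 1.66. The call of PRKAR2B (limma adjusted p = 0.044) was lost without replicate 2, at 0.43 (limma adjusted p = 0.360), without replicate 1, at 0.61 (limma adjusted p = 0.101), and without replicate 4, at 0.81 (limma adjusted p = 0.082). It was also lost on replicates 3 and 4 alone, with the highest target, with quantile normalization of all 4 arrays, with dim genes left out, and where the prior followed intensity and was robust (limma adjusted p = 0.060 to 0.809). Of the 18 genes, 11 were called above without replicate 2, beside 7460 of 17214 named genes. On replicates 3 and 4 alone 10 of the 18 were, beside 6884 of 17214. Calls other than that of PRKAR2B were thus lost as well.

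As a check on the labelled cells, 0 of 5 mature nephron markers, 0 of 2 kidney lineage markers and 0 of 2 leukocyte markers were detected. The share of all named genes was 52.7%. The kidney lineage genes were PAX2 at -1.63 ± 0.74 and PAX8 at -3.12 ± 0.90 (SD, n = 4 for each), so that no kidney marker on the lists was detected with the study's baseline. Without SPATA5 and SPATA13, 1 of 2 kidney lineage and 1 of 5 mature nephron markers were detected, beside 74.0% of all named genes. With the olfactory genes the counts were the same, beside 71.4%. PAX2, at a mean level of 8.48, was the kidney lineage gene above these baselines. It rests on 1 of its 3 probes, whose mean was 9.62 against 6.96 and 7.02. The limma test called 1 of 2 above without SPATA5 and SPATA13 and 0 of 2 with the olfactory genes. Of 4 endothelial markers, a cell type known for CALCRL and RAMP2, PECAM1, CDH5 and TEK were called below the baseline, while KDR lay near it, at 0.30 ± 0.85 (SD, n = 4; limma adjusted p = 0.414). KDR rests mainly on 1 of its 3 probes, whose mean was 11.6 against 9.36 and 7.20. With the median of the probes 0 of the 4 markers were detected, beside 50.2% of all named genes. Without SPATA5 and SPATA13, 1 of the 4 was called above, beside 11692 of 17214 named genes. Of the neurofilament genes, NEFL stood at 4.01 ± 0.56 and NEFM at 0.66 ± 3.08 (SD, n = 4 for each), the latter below the baseline on 2 of 4 arrays and not called (limma adjusted p = 0.068). Gene levels correlated between arrays across genes, which are not independent replicates, with Pearson's r of 0.949 to 0.977, and at most 8 probe values were equal in any pair.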

How the data were processed

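The authors deposited 1 log2 value for each probe and array. Per the study's methods, Cy3-labelled cDNA was hybridised in 1 colour to NimbleGen arrays of the HG18 build, and NimbleScan extracted the intensities. The submitters' processing notes name RMA, with no setting given. Sorted values coincided within 0.01 at 99.97% of ranks for replicates 1 and 2 and at 99.99% for replicates 3 and 4, but at no more than 1.25% across these pairs, the form that quantile normalization in 2 pairs gives. Raw intensities were not used here, so spot background and saturation were not examined.

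Names came from a RefSeq table of GRCh38.p14, through the accession in each probe name with its version removed, which named 19122 of 24000 targets. The probes of a target were averaged on the linear scale and returned to log2, and targets of a gene were averaged. PYY2, a control gene of the study, and ADM2 had no matched accession. The baseline and the detection rule followed the study, with 10 of its 11 control genes. limma 3.58 (R 4.3) tested whether distances differed from 0, two-sided, and p-values were adjusted over 17214 genes by Benjamini-Hochberg, with calls at 0.05. The prior degrees of freedom came out infinite. A shift of a baseline moves all genes of that array together, so the tests were not independent. The fit was tested on simulated data with the same SD for all genes and independent arrays. Unequal spreads, and shifts shared by the genes of an array, were thus not covered.

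The members and lists were chosen with earlier results of these data known. Named were the 10 members, their ligands, list genes detected or within 0.5 log2 units of the baseline, control genes and markers. Other genes with values were named after these had been seen. Alternatives changed the control genes, the baseline height, the probe summary, the normalization, the arrays used, the dim-gene filter and the prior. The precision is limited by the 4 arrays.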

Additional observations from a re-analysis of the deposited data

Results flagged for a closer look

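Among 96 sets of 4 array values (level and distance of 48 genes), 4 had a lone array whose gap to its nearest neighbour was too large a part of the range by Dixon's criterion, and chance alone marks about 1 in 20, or 4.8 of 96. The gap divided by the range was 0.952 for the distance of RAMP2, with replicate 3 at -2.75 and the rest between -1.17 and -1.09. It was 0.868 for the level of VIPR2, at 7.21 on replicate 1 and 7.86 to 7.95 on the others. For the distance of GRK6 it was 0.837, with replicate 3 at 1.10 and the others at 2.01 to 2.19. For the level of PRKAR1B it was 0.833, with replicate 2 at 10.87 and the others at 11.56 to 11.70. Replicate 3 had the highest baseline, 10.69, and its part in the values of RAMP2 and GRK6 was not tested.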

How the results depend on the processing

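The 4 alternatives that set a lower baseline from the same levels raised the number of the 10 genes detected, and the other alternatives left it at 0. The share of all named genes detected, 52.7%, moved with it. With 1 SD in place of 2 SD 1 of 10 was detected (64.3% of all genes), with the median plus 2 scaled MAD 2 (67.7%), with the olfactory genes 2 (71.4%), and without SPATA5 and SPATA13 3 (74.0%). The number called below by limma was 8 with 1 SD (29.8% of all genes), 5 with the median and MAD (25.3%), 4 with the olfactory genes (21.7%), 4 without SPATA5 and SPATA13 (18.1%), and 5 of the 5 left after dim genes were removed (20.8%). Leaving out 1 replicate gave 9 to 10 called below and 0 detected. Signs turned as follows. With plus 1 SD, VIPR1 stood at 0.50, GIPR at 0.87, SCG5 at 1.20 and DPP4 at 0.89. With plus 3 SD, CALCB stood at -1.30, PTHLH at -0.32, ARRB1 at -0.64, ADCY1 at -0.18, ADCY3 at -0.37, PRKAR2A at -0.23 and PRKAR2B at -0.59, and CRCP, GRK3, GRK5, GRK6, ADCY7, ADCY9, PRKACB, PRKAR1B and CREB1 lost their calls. With the mean of log2 probe values, SCG5 (-0.87) and DPP4 (-1.27) were called below, as they were with plus 3 SD (-1.44 and -1.74). Without SPATA5 and SPATA13, PTH1R stood at 0.11, VIPR1 at 1.51, RAMP2 at 0.78, GIPR at 1.88, SCG5 at 2.21 and DPP4 at 1.90. With the olfactory genes, VIPR1 stood at 1.26, RAMP2 at 0.54, GIPR at 1.64, SCG5 at 1.96 and DPP4 at 1.66, and with the median and MAD at 0.89, 0.16, 1.26, 1.59 and 1.28. CALCB stood at -0.013 with the highest target, -0.013 with quantile normalization and -0.62 on replicates 3 and 4, and SCG5 at 0.23 on replicates 1 and 2. Leaving out 1 replicate gave CALCB from -0.26 to 0.47, negative without replicate 1 (-0.12) or 2, and SCG5 from -0.43 to 0.052, positive without replicate 4. A higher or lower baseline shifts all genes alike by construction. No paired analysis was possible because there is 1 group. A distance below 0 does not show that a transcript is absent.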
